A study of Mus musculus with 20 samples.

Results

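Mesoderm cells lacking the de novo DNA methyltransferases Dnmt3a and Dnmt3b were compared with wild-type (WT) cells after both had been cultured for 4 days without dexamethasone (Dex). The comparison used 4 arrays, 2 of Dnmt3a-/-Dnmt3b-/- (DKO) Dex- cells and 2 of WT Dex- cells, of the 20 arrays in the series, and covered all 18194 genes that a single-gene probe set represented. Both groups descended from J1 mouse embryonic stem (ES) cells of the 129sv/Jae strain. WT cells are labelled as the clone J1G4.2 and DKO cells as the clone 16G4.3, and both clones carried Gata4GR under the CAG promoter, a fusion of Gata4 with the part of the human glucocorticoid receptor that binds its ligand. ES cells had been differentiated for 4 days on type IV collagen, sorted as Flk1+/PDGFRα+ mesoderm, and then cultured on type IV collagen for 4 days with no Dex, the ligand that activates the fusion protein. Of the other groups used below, Dex+ cells were cultured in the same way with 100 nM Dex, primitive endoderm (PE) cells were Gata4GR ES cells given 100 nM Dex for 4 days, and ES cells and sorted Flk1+ cells received none. Each genotype was 1 transgenic clone, so a difference of genotype and a difference of clone cannot be told apart. Per the methods, more DKO than WT ES cells were plated at the start. The paper reports a low recovery of Flk1+ cells from DKO ES cells on type IV collagen, and calls this condition not stable. The 2 replicates of each genotype came from independent experiments. The SE and p-values rest on the spread between arrays of a group, pooled over all 10 groups of the series. They are thus not the spread of the 4 Dex- arrays alone, and the pool includes Flk1+ groups whose replicates were of different lines.

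Dnmt3a and Dnmt3b place methyl groups on CpG sites that were not methylated before, whereas Dnmt1 copies existing marks at replication. In the early embryo the 2 de novo enzymes methylate the promoters of many germ cell genes, which then stay silent in somatic tissues, and they take part in setting imprints and in marking the inactive X chromosome. Flk1+ mesoderm cultured on type IV collagen without stroma is known to give rise to vascular mural cells, the smooth muscle cells and pericytes of the vessel wall, which express smooth muscle alpha-actin (Acta2).

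All values are RMA levels on the log2 scale, in which a step of 1 is a 2-fold change. A gene passed when its Benjamini-Hochberg adjusted p was under 0.05 in limma over all genes and its change was at least 2-fold. Over genes, the 2 WT arrays correlated at r = 0.991, the 2 DKO arrays at 0.993, and arrays of different genotype at 0.966 to 0.971. 244 genes lay at least 2-fold apart between the WT arrays and 95 between the DKO arrays. Genes are not independent replicates, so these correlations describe the arrays and are no test.

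Dnmt3a was at 8.0 and 8.34 in the WT arrays and at 6.72 and 6.60 in the DKO arrays, and fell by 1.51 ± 0.19 on the log2 scale (SE; limma adjusted p = 9.54e-05). The other Dnmt3a probe sets fell more, with differences of -2.38 to -3.83. Dnmt3b was at 6.59 and 6.65 in WT and at 5.08 and 4.97 in DKO, and its difference of -1.59 ± 0.22 also passed (limma adjusted p = 1.99e-04). The other Dnmt3b probe set differed by -0.37, and averaging both gave -0.98, short of the 2-fold minimum. By the probe sets used, both targeted genes were lower in the arrays labelled DKO. Where the probe sets lie relative to the deleted exons is not given in the sources used here. The other 13 measured genes of the DNA methylation machinery did not pass: Dnmt1, the maintenance enzyme, was at 10.63 and 9.86 in WT and at 9.43 and 9.57 in DKO. Gata4 stood at 6.46 and 6.61 in the WT arrays and at 6.44 and 6.41 in the DKO arrays, a difference of -0.11 ± 0.20 (adjusted p = 0.827).

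Acta2, the defining mural marker, was at 15.11 and 15.09 in WT and at 14.95 and 14.91 in DKO by the probe set used, a difference of -0.17 ± 0.40 (limma adjusted p = 0.88). Its other 2 probe sets differed by -1.61, from 9.89 and 10.11 in WT to 8.39 and 8.39 in DKO, and by -0.36. The probe set used reads close to the top of the scale, and whether it was saturated was not tested. The mean of the same probe set had been 10.19 in WT and 11.49 in DKO Flk1+ cells. Tagln, an actin-binding protein of smooth muscle, averaged 14.37 in WT and 14.18 in DKO Dex- cells, against 9.21 in WT ES cells (adjusted p = 0.87). Of all 7 mural markers 3 were higher in DKO and 1 was lower, where 3.51% of all genes tested were higher and 2.34% lower.

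The ES cell and endoderm markers given here were set against their level in WT ES cells or WT PE. The series holds no endothelial or blood cell state. Of 4 ES cell markers Nanog and Sox2 averaged 3.92 and 5.11 in WT and 4.4 and 4.81 in DKO Dex- cells. In WT ES cells they averaged 11.23 and 12.70. Pou5f1 and Zfp42 passed higher in DKO, at means of 5.38 and 7.12, against 12.25 and 13.61 in WT ES cells. Of 5 endoderm markers Dab2 averaged 11.89 in WT and 11.91 in DKO, against 13.47 in WT PE, so that it was well expressed in the cultures of both genotypes. Afp passed higher in DKO, with a mean of 7.03 against 4.85 in WT Dex- cells, but it averaged only 5.24 in WT PE. Of 3 endothelial markers Tek, at 9.02 in WT and 10.57 in DKO, passed higher, though it also averaged 7.78 in WT ES cells and 9.75 in WT PE. Pecam1 and Cdh5 averaged 5.11 and 4.88 in WT and 5.63 and 5.28 in DKO. Of 3 blood cell markers Ptprc and Gata1 averaged 4.19 and 4.96 in WT and 4.14 and 4.99 in DKO. The part of any such cells in the differences below was not tested. The cultures were measured in bulk, so fewer cells of a type and less RNA per cell cannot be told apart.

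Between the genotypes, 638 genes were higher in DKO Dex- cells, 3.51% of the 18194 tested, and 425 were lower, 2.34%. Every gene list count below is to be read beside these shares. The increases were larger than the decreases: 177 genes rose at least 4-fold and 33 at least 16-fold, while 69 fell at least 4-fold and 3 at least 16-fold. The genes that rose had a median level of 6.57 in WT cells, below the median of 6.82 over all genes, and 8.55 in DKO cells. The genes that fell had a median of 9.12 in WT and 7.59 in DKO. In all, 1063 genes passed (5.84% of those tested). Of these, 769 (72.3%) differed at least 2-fold the same way in each same-numbered pair of arrays. The same arrays gave the calls, so this count follows in part from the choice and is no separate support. The same count over all tested genes is not given. Without a test, 1196 of the 18194 genes differed at least 2-fold with no overlap of arrays between the genotypes. Replicate 1 of both genotypes was scanned on the same day and replicate 2 of both on another day, so each pair is also a comparison within a scan day.

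**Figure D1:**
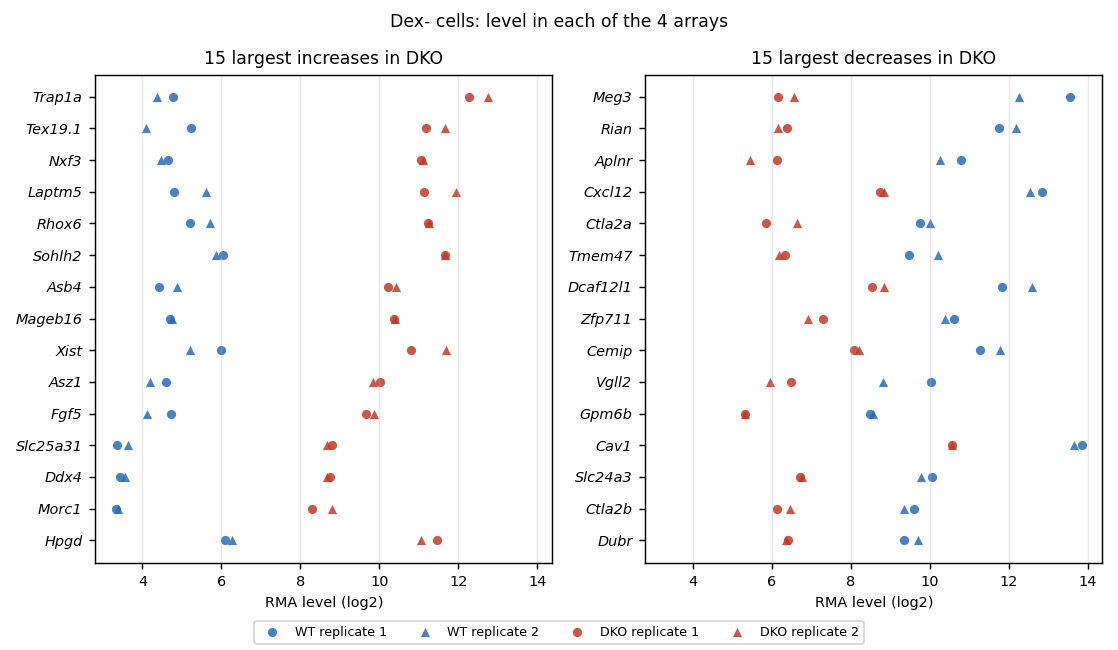
RMA level (log2, x axis) of the 15 genes with the largest increase (left) and the 15 with the largest decrease (right) in DKO Dex- cells, 1 point per array; WT arrays are blue and DKO arrays red, with circles for replicate 1 and triangles for replicate 2. The 30 genes were chosen by size of change among passing genes whose 2 red points lie on one side of the 2 blue points. That separation was thus fixed by the choice, and WT levels on the left lie between 3.33 and 6.27.

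The largest increases were mostly genes of the germ line. Trap1a, an X-linked gene first known as a tumour rejection antigen, was at 4.78 and 4.37 in the WT arrays and at 12.26 and 12.74 in the DKO arrays, a 243-fold difference (log2 7.92 ± 0.55, limma adjusted p = 2.84e-07). Tex19.1, which restrains transposable elements in germ cells and placenta, was at 5.22 and 4.08 in WT and at 11.18 and 11.66 in DKO (log2 6.77 ± 0.43, adjusted p = 1.12e-07). Nxf3, a germ cell relative of the mRNA export factor Nxf1, was at 4.65 and 4.47 in WT and at 11.06 and 11.11 in DKO (log2 6.52 ± 0.35, adjusted p = 2.21e-08). The WT levels of these 3 genes lay near the bottom of the scale, where the 10th percentile of all values over the 20 arrays was 4.15. Sohlh2, a transcription factor of early germ cell differentiation, rose from 6.04 and 5.86 to 11.65 and 11.67. Asz1, a germ granule protein needed for piRNAs, rose from 4.59 and 4.19 to 10.01 and 9.82.

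piRNAs are small RNAs that guide Piwi proteins to transposon transcripts in the germ line. Of 18 measured piRNA and transposon defence genes, 9 rose and the other 9 did not pass, with a median DKO minus WT difference of 1.32, against a median of -0.03 over all genes. The 9 included Ddx4, the germ cell helicase also called Vasa, at 3.42 and 3.55 in WT and at 8.76 and 8.66 in DKO (limma adjusted p = 8.55e-09). Gpat2 was at 4.51 and 4.56 in WT and at 7.91 and 7.86 in DKO, and Mael, a germ granule protein, at 3.59 and 3.53 and at 6.92 and 6.66. Piwil2, 1 of the Piwi proteins themselves, rose by 2.54 ± 0.25, while Piwil4 differed by -0.03 ± 0.13. The mean level of the 18 genes was 4.96 and 4.86 in the WT arrays and 6.95 and 6.88 in the DKO arrays.

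Among 27 measured germ cell and meiosis genes, 12 rose and the other 15 did not pass, with a median difference of 0.86. Dazl, an RNA-binding protein that licenses germ cells for meiosis, was at 4.31 and 3.96 in WT and at 8.95 and 8.42 in DKO (log2 4.55 ± 0.45, limma adjusted p = 9.22e-06). Stk31 differed by 4.51 ± 0.18 and Tex11, an X-linked meiotic gene, by 3.48 ± 0.24. Sycp1 and Sycp3, structural proteins of the synaptonemal complex that holds paired chromosomes together, rose by 2.6 ± 0.17 and 2.80 ± 0.28. The second Dazl probe set differed by 2.24.

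Of 15 measured testis paralogs of housekeeping genes, 5 rose and 1 fell. Slc25a31, the testis form of the mitochondrial ADP/ATP carrier, was at 3.35 and 3.62 in WT and at 8.79 and 8.66 in DKO (log2 5.24 ± 0.34, limma adjusted p = 1.20e-07). Rpl39l, the testis copy of a ribosomal protein gene, was at 6.58 and 7.51 in WT and at 11.80 and 11.87 in DKO. Pdha2, the testis copy of a pyruvate dehydrogenase subunit, rose by 2.45 ± 0.20. The gene that fell was Cox6b2, a testis copy of a cytochrome c oxidase subunit, with a difference of -1.57 ± 0.30. Probe sets of such copies can share sequence with the housekeeping gene, and cross-hybridisation was not tested.

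Reproductive homeobox (Rhox) genes form a cluster on the X chromosome that is active in the gonads and the placenta. Of 9 measured X-linked germ cell genes, 6 rose, with a median difference of 4.80 over the 9. Rhox6 was at 5.19 and 5.70 in WT and at 11.23 and 11.26 in DKO (log2 5.80 ± 0.81, limma adjusted p = 2.26e-04). Rhox5 was at 6.75 and 8.03 in WT and at 11.94 and 12.49 in DKO, and Rhox9 at 5.85 and 6.47 and at 10.95 and 10.97. Mageb16, a melanoma antigen family member, was at 4.69 and 4.76 in WT and at 10.36 and 10.40 in DKO. The mean of the list was 5.38 and 5.61 in the WT arrays and 9.04 and 9.16 in the DKO arrays. Morc1, a silencer of transposons in male germ cells, stood outside these lists and rose from 3.33 and 3.39 to 8.30 and 8.80 (log2 5.19 ± 0.45).

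A known feature of many germ cell promoters is a site for E2F6 or an E-box bound by Max partners, both sequence motifs read by repressors that work beside DNA methylation. The RefSeq promoter windows, 250 bases before to 50 bases after the start in the build GRCm38.p6, were searched for the E2F core TCCCGC and the E-box CACGTG on both strands. Of 69 measured genes in the 4 germ cell lists, 57 (82.6%) had a window, the first listed of each gene being used. Both motifs stood in 8 of these 57 (14.0%), against 2.05% of the windows of 27025 genes in the table. Among the 14369 tested genes that had a window, 3.24% held both. The 8 genes, Ddx25, Ddx4, Hormad1, Mael, Slc25a31, Stag3, Sycp1 and Sycp3, were each among those that rose, with a median difference of 2.70. Of the 10 germ cell genes with TCCCGC alone 4 rose, of the 10 with CACGTG alone 1 rose (Stk31), and of the 29 with neither motif 13 rose, among them Asz1, Dazl and Sohlh2. Over all 465 tested genes with both motifs 23 (4.95%) were higher in DKO and 14 were lower. A match describes letters in a window and is no evidence of binding. The motifs in these 8 windows did not overlap.

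The windows of 4 of the 8 genes are shown because they include the largest increases (Ddx4 and Slc25a31), a window with 2 E2F cores (Mael) and a window with 2 E-boxes (Sycp3). Capitals mark TCCCGC, its reverse complement GCGGGA, and CACGTG; each is written from 5′ to 3′ on the strand of the gene. They lie at chr13:112652261-112652560 (minus strand), chr3:40708621-40708920 (plus strand), chr1:166238695-166238994 (minus strand) and chr10:88459337-88459636 (plus strand), and hold 38, 22, 24 and 15 CpG sites in turn.
Ddx4: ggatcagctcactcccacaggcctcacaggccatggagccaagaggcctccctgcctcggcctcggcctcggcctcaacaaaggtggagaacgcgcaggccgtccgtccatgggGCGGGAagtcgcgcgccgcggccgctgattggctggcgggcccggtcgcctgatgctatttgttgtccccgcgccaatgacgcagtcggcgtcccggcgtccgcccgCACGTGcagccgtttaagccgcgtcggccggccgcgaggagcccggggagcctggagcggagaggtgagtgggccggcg
Slc25a31: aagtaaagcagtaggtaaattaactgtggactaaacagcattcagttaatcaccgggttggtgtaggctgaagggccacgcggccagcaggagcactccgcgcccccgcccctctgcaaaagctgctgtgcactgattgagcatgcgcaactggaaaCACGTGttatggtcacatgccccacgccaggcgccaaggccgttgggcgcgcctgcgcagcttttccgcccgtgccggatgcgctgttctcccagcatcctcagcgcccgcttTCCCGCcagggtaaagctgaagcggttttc
Mael: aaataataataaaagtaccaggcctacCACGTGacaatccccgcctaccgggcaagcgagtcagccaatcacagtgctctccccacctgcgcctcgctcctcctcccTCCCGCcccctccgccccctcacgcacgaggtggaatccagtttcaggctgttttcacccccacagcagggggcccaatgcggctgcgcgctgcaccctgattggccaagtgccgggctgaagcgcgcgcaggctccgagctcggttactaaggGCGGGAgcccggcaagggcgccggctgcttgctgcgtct
Sycp3: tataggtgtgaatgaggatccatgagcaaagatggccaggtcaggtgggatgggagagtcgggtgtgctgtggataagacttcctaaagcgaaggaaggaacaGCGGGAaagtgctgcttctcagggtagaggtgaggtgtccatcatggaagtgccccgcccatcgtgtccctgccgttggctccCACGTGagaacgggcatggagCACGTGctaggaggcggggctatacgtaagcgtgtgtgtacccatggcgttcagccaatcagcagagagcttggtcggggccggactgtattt
CpG sites over all passing genes are not compared here, since part of each set had no window. A window was found for 79.9% of the genes that rose, 74.1% of those that fell and 79.0% of all genes tested.

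Of 22 measured pluripotency genes, 7 rose and 1 fell, with a median difference of 0.38. Dppa2 and Dppa4, partner chromatin proteins of ES cells and early germ cells, had the largest differences: Dppa2 was at 3.7 and 4.58 in WT and at 8.85 and 8.93 in DKO (log2 4.75 ± 0.62), and Dppa4 at 7.27 and 6.61 and at 10.03 and 10.25 (log2 3.20 ± 0.58). Zfp42, also called Rex1, was at 4.08 and 4.51 in WT and at 7.25 and 6.99 in DKO. Pou5f1, the core factor Oct4, rose from 4.20 and 4.33 to 4.99 and 5.77 (log2 1.11 ± 0.23, limma adjusted p = 0.0051), against a mean of 12.25 in WT ES cells. The core factors Nanog and Sox2 differed by 0.48 ± 0.41 and -0.29 ± 0.60 and did not pass. Lin28a, an RNA-binding protein of early embryonic cells, fell by 1.52 ± 0.35, and was at -1.37 without DKO replicate 2 and at -1.34 without WT replicate 2, neither of which passed. Without DKO replicate 2 Pou5f1 was at 0.72 and did not pass either. Fgf5, a growth factor that marks the primed epiblast and is absent from the list, was at 4.73 and 4.10 in WT and at 9.66 and 9.87 in DKO, a 40.8-fold difference (limma adjusted p = 5.42e-06).

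The largest decreases were in the maternally expressed RNAs of the imprinted Dlk1-Meg3 region on chromosome 12. Such RNAs are known to be silent when that region carries methylation on both alleles, and methylation was not measured here. Meg3 was at 13.55 and 12.26 in WT and at 6.17 and 6.58 in DKO, a 92.3-fold difference (log2 -6.53 ± 0.60, limma adjusted p = 4.73e-06). Its other 10 probe sets were also lower in DKO, by 1.12 to 5.42 on the log2 scale. Rian was at 11.77 and 12.18 in WT and at 6.38 and 6.17 in DKO (log2 -5.70 ± 0.47), and Mirg fell by 1.51 ± 0.24. In PE, Meg3 and Rian differed by 0.51 and 0.27 and did not pass, whereas both passed lower in DKO ES, Flk1+ and Dex+ cells. Dlk1, the paternally expressed gene of the region, was at 12.04 and 11.73 in WT and at 11.19 and 10.55 in DKO, just past the fold threshold (log2 -1.01 ± 0.30, adjusted p = 0.036), and its difference of -0.70 without DKO replicate 2 did not pass. Of 30 measured imprinted genes 6 fell and 2 rose. Nnat, a paternally expressed membrane protein gene, fell by 2.63 ± 0.26 and Plagl1, a paternally expressed zinc finger gene, by 1.72 ± 0.29. The 2 that rose, Asb4 and Peg10, are neighbours in 1 imprinted cluster on chromosome 6, and Asb4 went from 4.42 and 4.87 in WT to 10.22 and 10.42 in DKO (log2 5.68 ± 0.39). Igf2, a growth factor expressed from the paternal allele, did not pass (-0.59 ± 0.59, adjusted p = 0.65). Leaving out the x and s probe sets, which can match several transcripts, took the difference of Plagl1 to -0.15 (adjusted p = 0.92), and Peg10 was at 1.17 without DKO replicate 2.

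**Figure D2:**
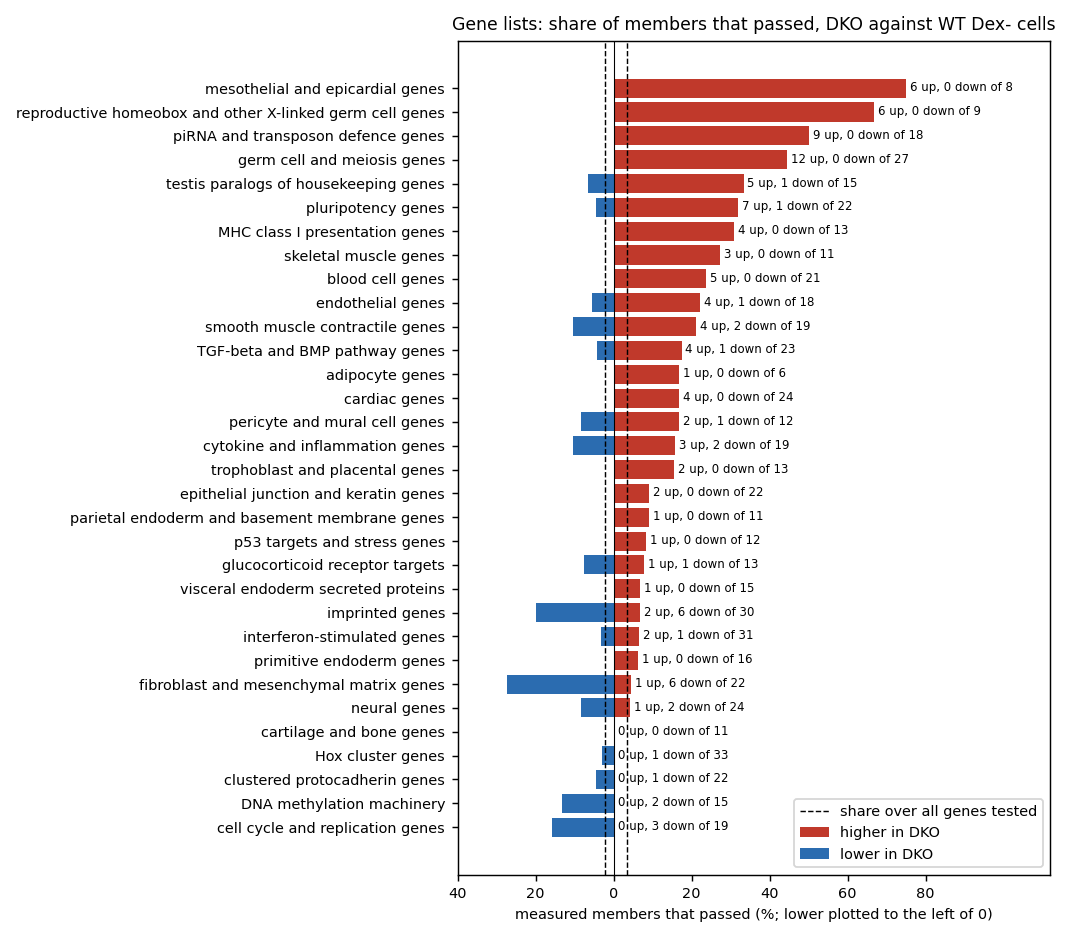
Share of the measured members of each of 32 gene lists (y axis) that passed in DKO against WT Dex- cells, in % (x axis), with members higher in DKO drawn in red to the right and members lower in blue to the left of 0; dashed lines mark the shares over all 18194 genes, 3.51% higher and 2.34% lower. The mesothelial list has the longest bar to the right (6 of 8) and the fibroblast and matrix list the longest to the left (6 of 22).

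The contractile and mural programme was mixed. Of 19 measured smooth muscle contractile genes 4 rose and 2 fell, with a median of -0.07, and of 12 pericyte and mural genes 2 rose and 1 fell, with a median of -0.02. Myocd, the coactivator that drives smooth muscle and cardiac genes, was at 5.42 and 5.45 in WT and at 9.53 and 8.02 in DKO (log2 3.34 ± 0.41, limma adjusted p = 7.58e-05). The intermediate filament gene Des was at 6.75 and 6.61 in WT and at 8.93 and 8.96 in DKO. Cnn1 (calponin) rose by 1.70 ± 0.43 and Myh11 (smooth muscle myosin) by 1.34 ± 0.33, though Myh11 ranged from 5.38 to 6.86 between the DKO arrays. In the other direction, Myl9, a myosin light chain, fell from 9.86 and 9.80 to 7.72 and 8.31, and the integrin gene Itga8 from 8.06 and 7.29 to 5.50 and 5.57. Rgs5, a pericyte marker, rose by 2.42 ± 0.59, and its other 3 probe sets differed by 0.13 to 0.59. Without WT replicate 1 Rgs5 was at 1.58 and did not pass. Pdgfrb, the mural cell receptor for PDGF, was at 11.53 and 11.47 in WT and at 10.18 and 10.75 in DKO and did not pass (adjusted p = 0.18). On leaving out 1 array in turn, 2 to 4 contractile genes passed higher and 1 to 3 lower: Myh11 was at 0.60 and Cnn1 at 1.30 without DKO replicate 2, and Myl9 at -1.51 without DKO replicate 1, none of which passed.

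Of 22 measured genes of fibroblasts and their matrix 6 fell and 1 rose, with a median of -0.35. Postn, a matricellular protein, was at 12.68 and 13.46 in WT and at 11.15 and 10.51 in DKO (log2 -2.24 ± 0.40, limma adjusted p = 0.0017). The others that fell were the small proteoglycan genes Dcn and Lum, the mesenchymal homeobox gene Prrx1, the crosslinking enzyme Loxl1 and S100a4, with differences of -1.63, -1.05, -1.53, -1.85 and -1.68. Lum was at -0.47 without WT replicate 1 and Prrx1 at -0.97 without WT replicate 2, and Dcn was at -0.82 over all its probe sets, none of which passed. Twist1, a mesenchymal transcription factor, rose from 5.48 and 5.18 to 7.08 and 7.11. Cav1, the main protein of caveolae, was among the 15 largest decreases, at 13.85 and 13.67 in WT and at 10.57 and 10.57 in DKO.

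Muscle genes of the heart and skeleton held some of the larger increases. Actc1, the cardiac actin, was at 8.82 and 9.05 in WT and at 13.01 and 13.14 in DKO, a 17.7-fold difference (limma adjusted p = 1.72e-04). Myl4, an atrial and embryonic myosin light chain, rose by 2.74 ± 0.35, Mef2c, a muscle transcription factor, by 2.34 ± 0.29, and Tnnt2, the cardiac troponin T, by 1.97 ± 0.53. These 4 were the ones of 24 measured cardiac genes that passed, and the median was 0.00. Nkx2-5 and Myh6, which define cardiomyocytes, averaged 6.39 and 4.57 in WT and 6.21 and 4.84 in DKO. Among 11 skeletal muscle genes 3 rose: Acta1, the skeletal actin, from 8.37 and 8.63 to 11.45 and 11.58, Tnnt3, a fast troponin T, from 6.06 and 6.40 to 8.72 and 8.21, and Myh3, embryonic myosin, by 1.13 ± 0.28. Tnnt2 (1.15 without DKO replicate 2) and Myh3 (1.05 without WT replicate 1) lost the call on leaving out 1 array. Actin probe sets can cross-hybridise between family members, which was not tested.

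The mesothelium and the epicardium are the epithelial coverings of the body cavities and the heart. Of 8 measured mesothelial and epicardial genes 6 rose, with a median of 1.75, where 3.51% of all genes were higher. Upk1b was at 7.50 and 7.12 in WT and at 10.69 and 9.82 in DKO (log2 2.94 ± 0.24), and Upk3b, a second uroplakin, at 5.45 and 5.29 and at 8.25 and 7.0. Tbx18, a transcription factor of the epicardium, was at 7.0 and 7.01 in WT and at 9.32 and 9.22 in DKO. Wt1, a transcription factor of the same layer, rose by 1.68 ± 0.38, Msln (mesothelin) by 1.05 ± 0.19 and Lrrn4 by 1.82 ± 0.44. On leaving out 1 array in turn 3 to 6 of the 8 genes passed, and without DKO replicate 1 Lrrn4 (0.95), Msln (0.90) and Wt1 (1.59) did not. DKO replicate 1 was above DKO replicate 2 in all 6 genes, and the mean of the list was 7.76 and 7.13 in the DKO arrays against 6.0 and 5.99 in the WT arrays. 2 epithelial genes also rose, the cell adhesion gene Epcam by 1.51 ± 0.39 and the transcription factor Grhl2 by 1.90 ± 0.21, of 22 measured; averaging all probe sets of a gene, they differed by 0.68 and 0.45 and did not pass.

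Endothelial genes were higher in DKO in 4 of 18 and lower in 1, with a median of 0.45. Tek, the receptor for angiopoietins, was at 8.61 and 9.43 in WT and at 10.84 and 10.29 in DKO, and Angpt1, its ligand made by mural cells, rose by 1.4 ± 0.43, a call lost on leaving out DKO replicate 1 (1.13), DKO replicate 2 (1.68) or WT replicate 1 (0.82) and on averaging its probe sets (0.80). Flt1, a VEGF receptor, went the other way, from 11.03 and 10.19 in WT to 7.84 and 7.95 in DKO (log2 -2.72 ± 0.25, limma adjusted p = 4.62e-06). Aplnr, the apelin receptor of mesoderm and endothelial precursors, had the largest decrease after Meg3 and Rian, from 10.80 and 10.26 to 6.14 and 5.47 (log2 -4.73 ± 0.23, adjusted p = 8.55e-09). Between 1 and 4 endothelial genes passed higher on leaving out 1 array in turn, and Tek was at 1.14 without WT replicate 1. Among 21 blood cell genes 5 rose. Laptm5, a lysosomal protein of blood cells, was at 4.80 and 5.61 in WT and at 11.14 and 11.93 in DKO by the probe set used, while its other 4 probe sets differed by 0.01 to 2.13, so its level rests on 1 probe set. Csf1r, the receptor for the macrophage growth factor, rose from 8.03 and 8.03 to 10.04 and 9.90, and Cd68, a lysosomal protein of macrophages, from 5.40 and 5.49 to 7.79 and 7.92. The other Csf1r probe sets differed by 0.16 and 1.12. Hbb-y, an embryonic globin gene among the 5, was at 0.03 without x and s probe sets and did not pass. Ptprc, the pan-leukocyte marker, was near 4 in every array, with 4.52 and 3.87 in the WT arrays and 4.16 and 4.12 in the DKO arrays.

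Of 13 measured genes of MHC class I presentation 4 rose, with a median of 0.28. H2-D1 was at 6.70 and 6.65 in WT and at 9.53 and 9.23 in DKO, and H2-K1, another classical heavy chain, at 7.17 and 7.22 and at 9.46 and 9.42. Over its 9 probe sets H2-D1 differed by -0.07 to 2.89, and over its 4 H2-K1 differed by 0.19 to 2.25. Both values used are from x probe sets, and cross-hybridisation between heavy chains was not tested. The heavy chain gene H2-M3 rose by 1.69 ± 0.21 and the peptide-trimming enzyme Erap1 by 1.67 ± 0.41, which did not pass when any 1 of the 4 arrays was left out. B2m, the light chain they share, was at 12.29 and 12.35 in WT and at 11.61 and 11.64 in DKO and did not pass (adjusted p = 0.19). Interferon-stimulated genes passed in 3 of 31: Xaf1 and the transcription factor Irf1 rose, and Ifit2 fell. Among 19 cytokine and inflammation genes, the alarmin Il33 rose from 4.46 and 4.05 to 8.58 and 7.45, and Cxcl12, a chemokine made by stromal cells, fell from 12.84 and 12.53 to 8.74 and 8.85 (log2 -3.89 ± 0.29, limma adjusted p = 5.37e-07). Tnfaip3, an inhibitor of NF-kB signalling, fell by 2.19 ± 0.19, and the chemokine gene Cxcl10 and the complement inhibitor Serping1 rose by 1.25 ± 0.26 and 1.96 ± 0.36. Cxcl10 (1.07 without WT replicate 2) and Irf1 (1.34 without DKO replicate 2) lost the call on leaving out 1 array.

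All 3 D-type cyclins, which carry growth signals to the cell cycle, were lower in DKO. Ccnd1 was at 10.17 and 9.88 in WT and at 6.64 and 7.45 in DKO (log2 -2.98 ± 0.31), Ccnd2 at 13.14 and 13.44 and at 11.88 and 11.97, and Ccnd3 at 11.29 and 11.12 and at 10.13 and 9.93. The other 16 measured cell cycle and replication genes did not pass, among them Mki67, a marker of proliferation, with 10.38 and 9.92 in the WT arrays and 9.65 and 9.56 in the DKO arrays. Of 23 TGF-beta and BMP pathway genes 4 rose and 1 fell. The BMP modulator Bmper rose from 6.25 and 6.16 to 9.14 and 8.86, and the BMP target genes Id2 and Id1 by 2.56 ± 0.47 and 1.85 ± 0.46, whereas Bmp4 itself stood at 12.20 and 12.25 in the WT arrays and at 10.67 and 10.38 in the DKO arrays and did not pass (adjusted p = 0.14). Fst (follistatin), which binds activin, was at 4.79 and 6.26 in WT and at 10.68 and 10.41 in DKO (log2 5.02 ± 0.35, limma adjusted p = 2.36e-07). Hpgd, which inactivates prostaglandins, rose by 5.08 ± 0.71 by the probe set used and by 0.54 by its other probe set. Id1 was at 1.22 without WT replicate 1 and did not pass, and Ccnd3 was at -0.48 when all probe sets were averaged.

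Each of 3 endoderm lists had 1 gene that rose, which sets no list apart beside the 3.51% of all genes that were higher. Pdgfra rose, of 16 primitive endoderm genes, from 6.53 and 6.79 to 8.91 and 8.91, and it was also a marker by which the mesoderm had been sorted. Afp, a serum protein of visceral endoderm, rose from 4.91 and 4.79 to 6.90 and 7.16 and was the 1 of 15 secreted visceral endoderm genes to pass, while Srgn, a proteoglycan gene, was the 1 of 11 basement membrane genes. Sox17 and Foxa2, which define endoderm, differed by 0.91 ± 0.73 and 0.69 ± 0.45 and did not pass. Of 13 trophoblast genes Tfap2c and Plet1 rose, by 2.32 ± 0.30 and 1.46 ± 0.37. Of 24 neural genes Stmn2 and Gap43, growth cone proteins, fell by 2.79 ± 0.45 and 2.44 ± 0.41, and the neurofilament gene Nefl rose by 1.61 ± 0.47. Hoxb5 (-1.02 ± 0.26) was the 1 of 33 Hox genes to pass and Pcdhb22 (-1.99 ± 0.52) the 1 of 22 clustered protocadherin genes. Lpl, a lipase of fat and muscle, rose by 2.32 ± 0.25 and was the 1 of 6 adipocyte genes to pass. Of 13 glucocorticoid receptor targets Pdk4 rose by 2.99 ± 0.31 and Cebpd fell by 1.5 ± 0.29 (-0.84 over all its probe sets, which did not pass), and of 12 p53 and stress genes Pmaip1 rose by 1.82 ± 0.44. Nefl, Hoxb5, Pcdhb22, Plet1 and Pmaip1 lost the call on leaving out 1 array, with differences of 1.16, -0.89, -2.19, 1.21 and 1.80 without DKO replicate 2, and Tfap2c was at 0.38 without x and s probe sets. The largest difference among 11 cartilage and bone genes was -0.51 ± 0.39, in Col11a1 (adjusted p = 0.51).

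Further large decreases were in genes outside these lists. Ctla2a and Ctla2b, neighbouring genes for protease inhibitors, fell from 9.76 and 10.00 to 5.85 and 6.65 and from 9.61 and 9.36 to 6.14 and 6.48; the 2 are close copies, so their probe sets may not separate them. Cemip, a hyaluronan-degrading protein, fell by 3.38 ± 0.22. The sodium, potassium and calcium exchanger Slc24a3 differed by -3.18 ± 0.25, Vgll2, a cofactor of TEAD proteins, by -3.20 ± 0.32, and the noncoding RNA gene Dubr by -3.14 ± 0.30, all of which passed. The remaining 4 of the 15 largest decreases, Tmem47, Dcaf12l1, Zfp711 and Gpm6b, lie on the X chromosome.

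Xist is the noncoding RNA that coats and silences the X chromosome from which it is transcribed, and male cells, which have 1 X chromosome, normally keep it off after differentiation. It was at 5.99 and 5.21 in WT and at 10.80 and 11.68 in DKO Dex- cells (log2 5.64 ± 0.44, limma adjusted p = 8.66e-07). A second Xist probe set was at 3.89 and 4.08 in WT and at 10.13 and 10.92 in DKO, and the other differed by 1.49. Of 617 X-linked genes 56 (9.08%) fell, against 2.34% of all genes, and 27 (4.38%) rose, 6 of them in the germ cell list above. Tmem47, a junction protein, was at 9.47 and 10.21 in WT and at 6.33 and 6.20 in DKO, the ubiquitin ligase adaptor gene Dcaf12l1 at 11.85 and 12.59 and at 8.55 and 8.85, and the myelin proteolipid relative Gpm6b at 8.50 and 8.57 and at 5.34 and 5.32. Zfp711, a zinc finger gene, fell by 3.39 ± 0.29 by the probe set used, while its other probe set was at or under 3.71 in all 4 arrays.

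The shift of the X chromosome went beyond the genes that passed. Of the 355 X-linked genes in the upper 60% of genes by mean level, 202 were lower in DKO in both replicate pairs and 80 were higher in both. Their median DKO minus WT difference was -0.27, and it was -0.22 within the replicate 1 pair and -0.33 within the replicate 2 pair. In the other states the same median was 0.01 in ES cells, -0.03 in PE, 0.02 in Flk1+ cells and -0.05 in Dex+ cells, in which Xist differed by 4.80. In PE, Xist differed by 1.19 by the probe set used and did not pass. Its second probe set was at 4.05 and 3.94 in WT PE and at 7.09 and 7.65 in DKO PE. The median of the 56 genes that fell was -1.35, and 21 of the 56 were also lower in DKO Dex+ cells. Of 4 genes known to escape X inactivation, chosen after the values were seen, Kdm5c fell by 1.07 ± 0.22, and Kdm6a, Eif2s3x and Ddx3x differed by -0.27, -0.13 and 0.11. Silencing itself was not measured, and the chromosomes are described without a test, since genes are not replicates.

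Chromosomes 8 and 11 had the lowest and the highest autosomal median in Dex- cells, and the sign of each was the same in all 5 states. On chromosome 11, 98 of 1443 genes (6.79%) were higher and 8 (0.554%) lower in DKO Dex- cells. The median difference of its 920 better expressed genes was 0.27 in Dex- cells, 0.16 in ES cells, 0.27 in PE, 0.14 in Flk1+ cells and 0.32 in Dex+ cells, and all 12 of its 10 Mb segments with at least 20 such genes had a median above 0. On chromosome 8, 50 of 932 genes (5.36%) were lower, and the median was -0.17 in Dex-, -0.17 in ES, -0.18 in PE, -0.11 in Flk1+ and -0.15 in Dex+ cells, with 9 of 12 segments below 0. On chromosome 7, with a median of -0.13 in Dex- cells, 12 of 14 segments were below 0, and 35.7% of its genes lay above 0, the same share as on chromosome 8. The medians of the 17 autosomes other than 8 and 11 ran from that of chromosome 7 to 0.05 (chromosome 13) in Dex- cells. Chromosome 11 held 15.4% of the genes that rose and 7.93% of all genes, and chromosomes 8 and X held 11.8% and 13.2% of those that fell and 5.12% and 3.39% of all genes. Without chromosomes 8, 11, X and Y, 3.15% of 15193 genes were higher and 2.05% lower. The chromosome number of the clones was not tested. On the Y chromosome, where 9 genes were measured, Uba1y rose from 4.22 and 4.25 to 8.93 and 8.73 and the histone demethylase gene Kdm5d from 3.89 and 3.94 to 6.65 and 6.85, while Eif2s3y differed by 0.79 ± 0.22.

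**Figure D3:**
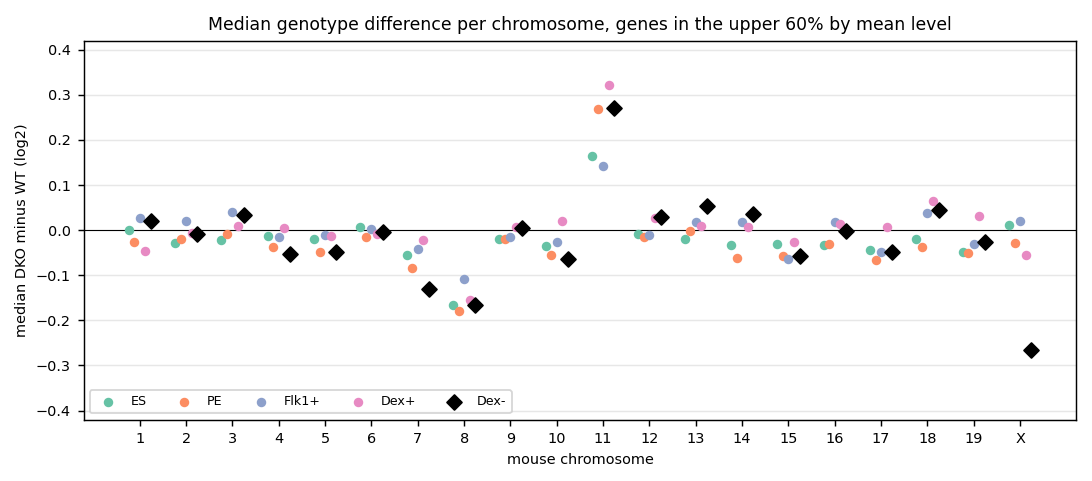
Median DKO minus WT difference (log2, y axis) of the genes on each mouse chromosome (x axis) that lie in the upper 60% by mean level, for ES, PE, Flk1+, Dex+ (coloured circles) and Dex- cells (black diamonds). Chromosome 11 lies above 0 and chromosome 8 below 0 in all 5 states, and chromosome X lies at -0.27 in Dex- cells and between -0.05 and 0.02 in the other 4.

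The genotype difference in Dex- cells was set beside that in the other states, with which it shares no array. In ES cells 203 genes (1.12%) were higher in DKO, and 65 of them were higher in Dex- cells too, 32.0% of the ES list and 10.2% of the 638. In PE 206 genes (1.13%) were higher and 80 were shared, 38.8% and 12.5%. In Flk1+ cells 72 genes (0.396%) were higher and 40 were shared, 55.6% and 6.27%. In Dex+ cells 876 genes (4.81%) were higher and 249 were shared, 28.4% and 39.0%. Of the genes lower in DKO, 236 were shared with Dex+ cells, which had 879 (4.83%), 26.8% of that list and 55.5% of the 425, 25 were shared with PE, which had 150 (0.824%), 16.7% and 5.88%, 12 were shared with Flk1+ cells, which had 55 (0.302%), 21.8% and 2.82%, and 5 were shared with ES cells, which had 49 (0.269%), 10.2% and 1.18%. In all 5 states 11 genes were higher in DKO: the germ cell genes Asz1, Gpat2, Nxf3, Pdha2, Rec114, Rhox13, Slc25a31, Sohlh2 and Tex19.1, the Y-linked gene Kdm5d, and Gm364.

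**Figure D4:**
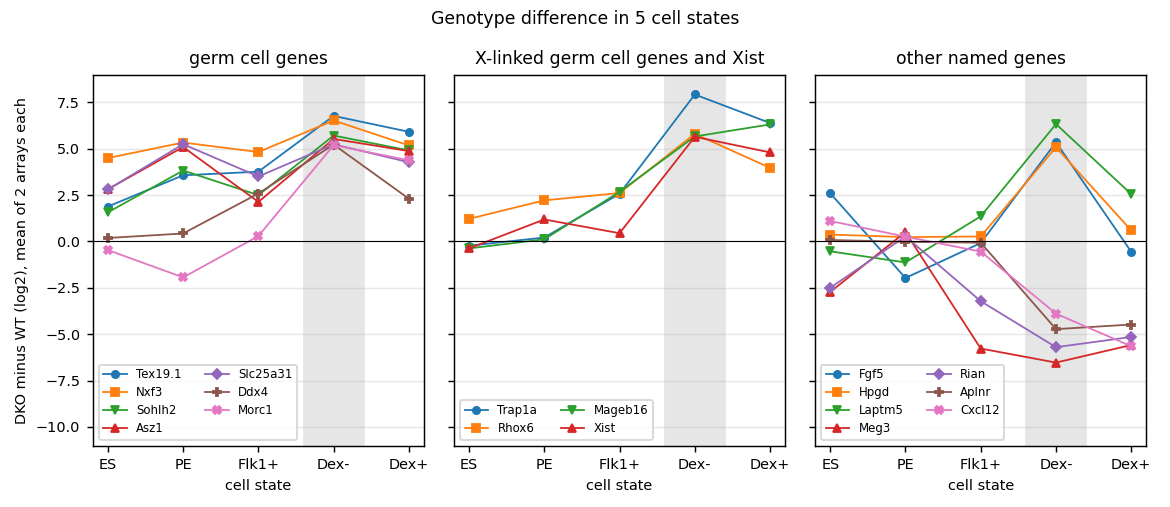
DKO minus WT difference (log2, y axis; mean of 2 arrays minus mean of 2 arrays) in 5 cell states (x axis; Dex- shaded) for 18 named genes in 3 panels; lines join the values of 1 gene and mark no time course. Nxf3 lies above 4 in all 5 states, Trap1a and Mageb16 lie within 0.4 of 0 in ES cells and PE, and Hpgd and Fgf5 lie above 5 in Dex- cells and within 1 of 0 in Flk1+ and Dex+ cells.

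Fewer genes passed in sorted Flk1+ cells, the state in which the cultures were started. The Flk1+ arrays are not all of the same clones: replicate 1 of each genotype came from the parental lines without Gata4GR. The test of the difference between the 2 genotype differences passed above 0 for 332 genes (1.82%) and below 0 for 197 (1.08%), 2.91% in all. Without WT Flk1+ replicate 2 the count above 0 was 566, and the count below 0 was 403 without WT Flk1+ replicate 1 and 124 without DKO Dex- replicate 1. Of the 638 genes higher in DKO Dex- cells, 259 (40.6%) also passed above 0 here, and of the 425 lower genes 153 (36.0%) passed below 0. Both tests use the same Dex- arrays, so these shares follow in part from the choice of genes. For the 259 genes the median change from Flk1+ to Dex- cells was 1.58 in DKO and -0.18 in WT, and 180 were higher after culture in DKO and 73 were lower after culture in WT. For the 153 genes the median change was -0.33 in DKO and 1.45 in WT, and 92 were higher after culture in WT and 51 lower in DKO. Over all genes 7.49% were higher and 7.79% lower after culture in WT, and 8.23% and 8.39% in DKO. These changes share arrays with the test and are given as values.

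Fst had the largest positive difference to Flk1+ cells (6.30 ± 0.49, limma adjusted p = 8.62e-06): it fell in WT from 10.73 and 11.33 to 4.79 and 6.26, and was at 9.61 and 9.89 before and 10.68 and 10.41 after culture in DKO. Fgf5 followed the same course, from 10.04 and 10.95 to 4.73 and 4.10 in WT, and at 10.21 and 10.61 before and 9.66 and 9.87 after in DKO (5.44 ± 0.71, adjusted p = 4.81e-04). For Trap1a, Xist and Laptm5 the difference of 5.35 ± 0.78, 5.20 ± 0.62 and 4.98 ± 0.98 came with a higher level after culture in DKO, by 3.19, 4.26 and 3.92. Among the genes below 0, Aplnr was at 12.89 and 13.21 in WT Flk1+ cells and at 13.05 and 12.93 in DKO Flk1+ cells, and was lower after culture by 2.52 in WT and 7.18 in DKO, so the genotypes overlapped before culture and not after it (-4.66 ± 0.33, limma adjusted p = 3.85e-06). Foxf1, a transcription factor of lateral mesoderm, was at 6.99 and 5.90 before and 9.10 and 9.07 after culture in WT, and at 8.62 and 7.2 before and 6.09 and 6.56 after in DKO. Zfp711 and Stard8, both X-linked, and Aard also crossed, with differences of -4.81 ± 0.41, -3.75 ± 0.58 and -4.81 ± 0.66. Fitted to the 8 arrays of the 2 states alone, 129 genes passed in place of 529, and Trap1a, Laptm5 and Stard8 were among those that did not pass. Laptm5 also lost the call without x and s probe sets, where another of its probe sets was read.

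**Figure D5:**
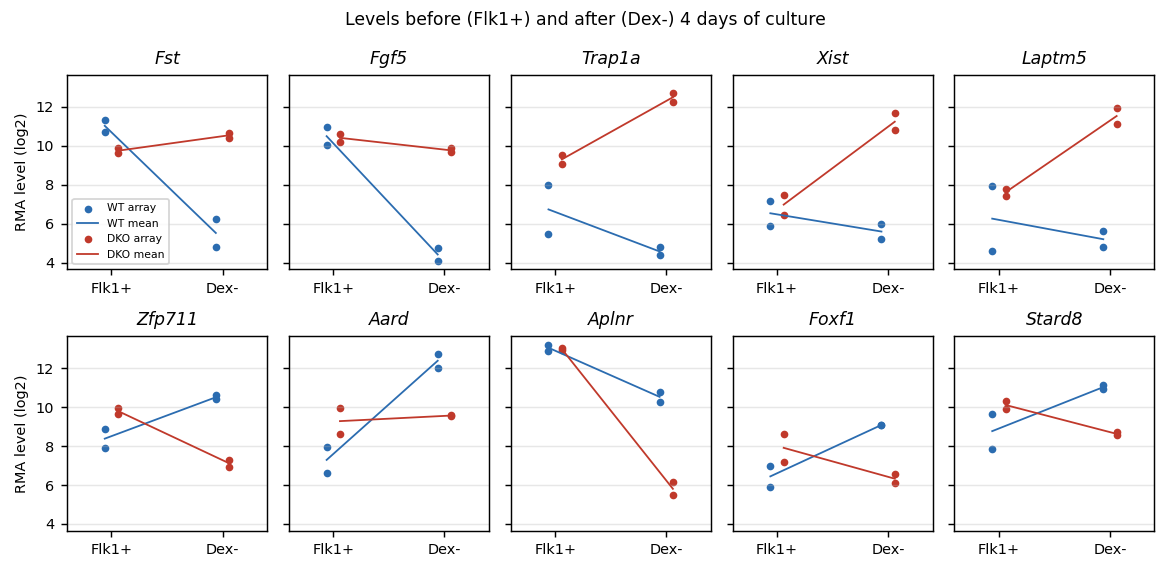
RMA level (log2, y axis) in sorted Flk1+ cells and in Dex- cells after 4 days of culture (x axis) for the 5 genes with the largest positive (upper row) and the 5 with the largest negative (lower row) difference between the genotype differences of the 2 states; points are arrays, lines join group means, WT is blue and DKO red. Fst and Fgf5 drop by 5.51 and 6.08 in WT and change by 0.79 and -0.64 in DKO, and Aplnr starts at 12.89 to 13.21 in all 4 Flk1+ arrays and ends at 5.47 to 6.14 in DKO.

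Against ES cells, the difference passed above 0 for 411 genes (2.26%) and below 0 for 414 (2.28%), 4.53% in all (267 and 258 without WT ES replicate 2), and 299 of the 638 higher genes (46.9%) and 249 of the 425 lower genes (58.6%) were among them. The same Dex- arrays entered this test and the choice of the 638 and 425 genes, so these shares follow in part from the choice. The largest positive values were those of Trap1a (8.15 ± 0.78), Laptm5 (6.86 ± 0.98), Mageb16 (6.03 ± 1.20), Xist (6.02 ± 0.62) and Morc1 (5.65 ± 0.63), whose genotype difference in ES cells lay between -0.53 and -0.23. Ddx4 belonged to the same kind, with 0.19 in ES cells and 5.22 in Dex- cells (5.04 ± 0.36, limma adjusted p = 1.81e-06). These genes were expressed in ES cells of both genotypes. Trap1a, Mageb16 and Morc1 lay between 11.18 and 12.22 in the ES arrays, Laptm5 between 10.02 and 10.71, and Ddx4 between 8.72 and 9.03. In WT Dex- arrays the same genes lay between 3.33 and 5.61. Xist read between 8.82 and 9.51 in the ES arrays by the probe set used, and at most 4.37 by its other probe sets. By contrast, Asz1 and Slc25a31 already differed by 2.82 and 2.80 in ES cells. The largest negative values were those of Cxcl12 (-5.0 ± 0.41), Aplnr (-4.81 ± 0.33), Zfp711 (-4.43 ± 0.41), Flt1 (-4.28 ± 0.35) and Adamts9 (-4.16 ± 0.43), and Adamts9, a matrix protease, was higher in DKO ES cells by 1.47. Meg3 and Rian were lower in DKO ES cells by 2.72 and 2.5, and their difference to Dex- cells was -3.80 ± 0.85 and -3.20 ± 0.67.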

How the data were processed

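RNA of 20 samples in 10 groups of 2 had been hybridised to Affymetrix MOE430v2 arrays after 2-cycle labelling. The deposited values are log2 levels of 45101 probe sets that the authors normalized by RMA; the version is not given in the sources used here. The depth of an array is fixed, so the number of arrays (2 per group) limits the precision. Probe sets were named with the platform annotation: 34958 had 1 gene symbol, 932 had several, 9211 had none here and were left out. Each of 18194 genes was read by the probe set of highest mean over the 20 arrays. The other files held scan settings, from which the scan day was taken.

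limma 3.58.1 in R 4.3.3 was fitted to all 20 arrays with 1 mean per group (10 residual degrees of freedom), and a gene passed at a Benjamini-Hochberg adjusted p under 0.05 and at least 2-fold. The methods name SAM without settings; limma replaced it because an exact test of 2 against 2 arrays cannot go below a two-sided p of 0.333. The script was tested on simulated data: 95 of 100 at log2 1.5 and 100 of 100 at 2.5 were recovered, with 2 false calls. Genes named include the 15 largest changes each way, taken among passing genes with no overlap of arrays between genotypes. Clone and locus names were left out. Also named are Dnmt3a, Dnmt3b, Gata4, Acta2 and up to 6 members of each of 32 gene lists. The 5 largest each way of the differences to Flk1+ and ES cells complete the set. Other genes were chosen after their values were seen. The comparison, the lists and the chromosome counts were chosen with earlier results of these data known. RefSeq promoter windows and gene positions are of GRCm38.p6. Alternatives were the arrays fitted, scan day and replicate blocks, filters, probe set rules, median scaling, variance settings and leaving out each array.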

Additional observations from a re-analysis of the deposited data

Results flagged for a closer look

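The genotype difference in Dex- cells differed from that in another state by an interaction test (limma, at least 2-fold and adjusted p under 0.05) for these genes; all values are differences of log2 differences. Against Flk1+ cells 332 genes lay above 0 and 197 below 0. Without WT Flk1+ replicate 2 there were 566 above 0, and below 0 there were 403 without WT Flk1+ replicate 1 and 124 without DKO Dex- replicate 1. The 5 largest above 0 were Fst (6.30), Fgf5 (5.44), Trap1a (5.35), Xist (5.20) and Laptm5 (4.98). The 5 largest below 0 were Zfp711 (-4.81), Aard (-4.81), Aplnr (-4.66), Foxf1 (-4.23) and Stard8 (-3.75). Against ES cells 411 genes lay above 0 and 414 below 0. Without WT ES replicate 2 there were 267 and 258. The 5 largest above 0 were Trap1a (8.15), Laptm5 (6.86), Mageb16 (6.03), Xist (6.02) and Morc1 (5.65), and the 5 largest below 0 were Cxcl12 (-5.0), Aplnr (-4.81), Zfp711 (-4.43), Flt1 (-4.28) and Adamts9 (-4.16). Groups of 2 arrays are too small for a test of single outlying arrays.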

How the results depend on the processing

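1 result reversed its direction: without x and s probe sets the difference of Laptm5 between Dex- and ES cells was -0.14 in place of 6.86, since another probe set was then read. The replicate numbers coincided with the scan day in the Dex- arrays, and the deviations of same-numbered arrays correlated at 0.175, which is 1 value for 2 pairs and does not show a pairing. With a replicate block 1150 genes passed (693 higher, 457 lower), and 99.7% of the 1063 were among them. Leaving out the minimum fold gave 2297 genes, 1267 higher and 1030 lower. Leaving out each of the 4 Dex- arrays in turn gave 913 to 1094 genes, 475 to 711 higher and 341 to 438 lower, with the lone array assumed to vary like the other groups, and 72.1% to 80.5% of the 1063 were among them. Gene list calls then numbered 107 to 117, against 126. Averaging all probe sets of a gene kept 68.0% of the calls and leaving out the lowest 40% of genes 79.6%; the other 6 alternatives in arrays, block, scaling, probe sets and variance kept 94.3% to 99.7%. Of 132 named genes that passed, 41 lost the call under at least 1 alternative, and 91 lost it under no alternative that tested them. Leaving out the lowest 40% of genes kept 106 of the 132, all of which passed, and did not test the rest.

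The differences between states depended more on the arrays fitted. Against Flk1+ cells, the 8 arrays alone gave 129 genes (86 above 0, 43 below 0), a replicate block 809 (314 below 0), and an adjusted p under 0.01 gave 268 (180 and 88). Leaving out 1 array in turn gave 383 to 753 genes, 237 to 566 above 0 (the highest without WT Flk1+ replicate 2) and 124 to 403 below 0 (the lowest without DKO Dex- replicate 1, the highest without WT Flk1+ replicate 1). Against ES cells, an adjusted p under 0.01 gave 436 (232 and 204), and leaving out 1 array gave 525 to 712 genes, 267 to 401 above 0 and 258 to 369 below 0 (the lowest counts without WT ES replicate 2). The cause of these changes was not tested.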
